A study of Mus musculus with 2 samples.

Results

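The 7 genes described here, Gpr149, Ctla2a, Gm2115, Il1rl1, Perp, Lrrc15 and Slit3, were chosen because their share of all transcripts fell most from mouse embryonic fibroblasts (MEF) to induced myogenic progenitor cells (iMPC). They are 7 of the 26100 genes listed in both count matrices. Because the choice used that fall, its size is given as a description and not as a result. What the choice did not use, and what is reported, is which MEF cells held the genes, whether the genes shared cells, and where in the iMPC library the last transcripts lay.

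The study profiled 2 cultures by droplet single-cell RNA sequencing (10x Genomics 3′ kit, version 3), in which every captured transcript carries a unique molecular identifier (UMI). Both cultures came from mice of the genotype Tg:Pax7-nGFP on a C57BL6;DBA2 background, a line with a green reporter driven by Pax7, the transcription factor of muscle stem cells. MEF are a mixed primary culture of embryonic connective tissue and were kept in MEF media. The iMPC had been made from fibroblasts with MyoD, the master regulator of muscle, and a combination that the labels call F/R/C without spelling it out. An age or passage is not used here, and each group is 1 library, so the intervals below cover counting error only (exact, 95%), no test between cultures was made, and culture and library cannot be told apart. In iMPC the exogenous MyoD and the F/R/C treatment came together and their parts cannot be told apart either.

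The genes belong to different families. Slit3 is a secreted guidance protein that acts through Robo receptors. Il1rl1 encodes ST2, the receptor of the alarmin IL-33, and is also made as a soluble decoy; it is a serum-responsive gene of cultured fibroblasts. Lrrc15 is a leucine-rich repeat membrane protein known from myofibroblasts and the stroma of tumours. Gpr149 is an orphan G protein-coupled receptor. Ctla2a is a small inhibitor of cysteine cathepsins. Perp is a membrane protein of the PMP22 family, a target of p53 and a part of desmosomes in epithelia. Gm2115 encodes a small protein that RefSeq also lists as Ctxnd1, and its role is not described here.

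The positions, from GENCODE M21 on GRCm38, lie on 7 chromosomes. Gpr149 is at chr3:62529077-62605140 on the minus strand, Ctla2a at chr13:60934155-60936625 (minus), Gm2115 at chr7:84528954-84583531 (plus) and Il1rl1 at chr1:40429570-40465415 (plus). Perp is at chr10:18845020-18857073 (plus), Lrrc15 at chr16:30269302-30283256 (minus) and Slit3 at chr11:35121224-35708507 (plus). All 7 are annotated as protein coding. Slit3 hosts the microRNA gene Mir218-2. Ctla2a overlaps the same-strand protein-coding models Gm49393 and Gm49391, each at 0 CPM in MEF and in iMPC. Gm2115 overlaps a same-strand model, Gm45174, which was itself at 5.88 CPM in MEF and 0.00859 CPM in iMPC.

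Because the genes fall together, the 250 bases before their annotated starts were read for short motifs (RefSeq sequences, GRCm38.p6). These starts are not always the GENCODE ones given above. Most of the Slit3 window lies inside the GENCODE gene, which begins at 35121224, and the Gm2115 window runs a little past its GENCODE start. Windows were found for Ctla2a, Gm2115, Il1rl1, Lrrc15 and Slit3, and not for Gpr149 and Perp. The motifs, searched on both strands, were the AP-1 site TGANTCA, the TEAD site GGAATG, the E-box CAGCTG and TATAAA, of which no pair overlapped in the windows shown. Capitals mark the matches. Ctla2a (chr13:60936626-60936875, minus) and its neighbour Ctla2b (chr13:60897448-60897697, minus) are shown because they are near copies with very different levels, Lrrc15 (chr16:30283255-30283504, minus) because it holds the same AP-1 letters, Il1rl1 (second annotated start, chr1:40439379-40439628, plus) because it holds the TEAD letters, and Slit3 (chr11:35121206-35121455, plus) for its contrast in base composition.
Ctla2a: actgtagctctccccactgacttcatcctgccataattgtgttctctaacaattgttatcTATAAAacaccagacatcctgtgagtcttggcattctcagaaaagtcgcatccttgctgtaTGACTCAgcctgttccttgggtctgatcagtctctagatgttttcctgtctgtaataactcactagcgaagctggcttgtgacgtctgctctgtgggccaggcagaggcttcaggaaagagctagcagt
Ctla2b: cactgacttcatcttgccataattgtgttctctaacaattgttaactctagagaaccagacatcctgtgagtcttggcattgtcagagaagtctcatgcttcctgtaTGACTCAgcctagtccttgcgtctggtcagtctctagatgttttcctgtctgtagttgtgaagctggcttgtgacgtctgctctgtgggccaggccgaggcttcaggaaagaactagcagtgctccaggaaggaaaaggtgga
Lrrc15: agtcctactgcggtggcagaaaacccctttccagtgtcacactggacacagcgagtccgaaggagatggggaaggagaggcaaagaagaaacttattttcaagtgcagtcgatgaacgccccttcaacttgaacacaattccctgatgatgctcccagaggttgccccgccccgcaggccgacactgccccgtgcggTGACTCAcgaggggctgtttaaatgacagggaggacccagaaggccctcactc
Il1rl1: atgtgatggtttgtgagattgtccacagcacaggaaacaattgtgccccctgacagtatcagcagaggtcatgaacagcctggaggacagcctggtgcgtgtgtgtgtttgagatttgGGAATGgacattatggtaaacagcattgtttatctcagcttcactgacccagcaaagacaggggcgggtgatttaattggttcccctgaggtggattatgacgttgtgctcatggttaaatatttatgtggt
Slit3: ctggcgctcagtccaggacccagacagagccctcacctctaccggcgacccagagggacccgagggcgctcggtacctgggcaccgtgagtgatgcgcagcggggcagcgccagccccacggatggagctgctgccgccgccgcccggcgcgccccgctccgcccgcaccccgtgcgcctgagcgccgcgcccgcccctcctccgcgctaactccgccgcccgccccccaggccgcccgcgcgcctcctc

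TGACTCA stands 129 bases before the Ctla2a start, 143 before that of Ctla2b and 53 before that of Lrrc15. AP-1 letters occur in 6.75% of all 32851 windows of this length in the table. The Il1rl1 window holds GGAATG 132 bases before its start, as do 12.6% of all windows in either strand at some position. No window of Gm2115 or Slit3, and not the first of the 2 Il1rl1 windows, held any of the 4 motifs. The E-box of muscle regulators, found in 13% of all windows, was in none of the windows found for the 7 genes. TATAAA, found in 12.4% of all windows, stands 190 bases before the Ctla2a start and is not in the Ctla2b window. The Slit3 window is 78.8% G and C, against 37.6% and 46.4% in the pair from Il1rl1 and a median of 52.4% over all windows. A match describes letters only and is not a site or a cause.

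Cells were defined in the same way for every value that follows. In iMPC a barcode with over 8035 UMIs and at most 20% mitochondrial UMIs was kept as a cell, and in MEF every listed barcode under the same mitochondrial limit. This left 6043 MEF cells with 118069653 UMIs (median 18929 per cell) and 9349 iMPC cells with 232728796 UMIs (median 20846). The MEF library carried all 12 listed fibroblast markers at 5 CPM (UMIs of a gene per 1000000 UMIs) or more. In MEF cells thinned to 5000 UMIs, 0 UMIs were found of the endothelial genes Kdr, Cldn5 and Erg, the mast cell genes Kit, Cpa3, Mcpt4, Tpsb2 and Fcer1a, and the epithelial genes Krt5, Krt14 and Cdh1. This bears on Il1rl1, Ctla2a and Perp, which mast, endothelial and epithelial cells also express. Some UMI was found of 7 of 10 endothelial, 3 of 8 mast cell and 7 of 10 epithelial genes, and 1, 0 and 1 of them reached 5 CPM. The summed level was 16.5 CPM for the endothelial list, 0.590 CPM for the mast cell list and 20.7 CPM for the epithelial list. Across the cells positive or negative for each gene and those with none of the 7, the same sums ranged from 14.6 to 19.0, from 0.394 to 0.976 and from 15.02 to 32.7 CPM. The 2 libraries shared 16 kept cell barcodes, and the iMPC cells on them held 0 UMIs of the 7 genes.

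All 7 genes were well measured in MEF, with 6828 UMIs or more each. Slit3 was highest by UMI share, at 189 CPM (186 to 191), with a UMI in 83.7% of cells. Ctla2a stood at 155 CPM (153 to 157) in 66.3% of cells and Gm2115 at 146 CPM (144 to 148) in 74.0%. Ctla2a was thus a little higher than Gm2115 in UMIs, with disjoint intervals, and was found in fewer cells. Lrrc15 reached 103 CPM (102 to 105) in 62.2% of cells and Il1rl1 92.2 CPM (90.5 to 93.9) in 59.3%. Gpr149 and Perp were at nearly one level, 58.7 CPM (57.3 to 60.0) and 57.8 CPM (56.5 to 59.2), and their intervals overlap. Yet Gpr149 had a UMI in 53.2% of cells and Perp in 31.1%. In a 3′ assay each transcript gives about 1 tag whatever its length, so these levels were not divided by length.

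What was left in iMPC cells differed far more than the MEF levels did. Gpr149 had 2 UMIs in all 9349 cells (0.00859 CPM, 0.00104 to 0.0310), a log2 ratio to MEF of -12.74 (-15.78 to -10.88). Ctla2a had 14 UMIs (0.0602 CPM) and a log2 ratio of -11.33 (-12.20 to -10.59). Gm2115 had 25 UMIs (0.107 CPM) and a log2 ratio of -10.41 (-11.03 to -9.84). Free RNA was profiled in barcodes of 200 to 600 UMIs and estimated at 2.06% of a median iMPC cell. After its subtraction Ctla2a was at -13.17 and Gpr149 was left without a value. Both depend on the barcodes chosen: Ctla2a was at 2.12 CPM in those used and 29.1 CPM in barcodes of 1 to 100 UMIs. Gpr149, Ctla2a and Gm2115, a receptor, a protease inhibitor and a small protein, lead the order of the fall.

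The other 4 kept more. Il1rl1 had 61 UMIs (0.262 CPM, log2 ratio -8.46, -8.85 to -8.10) and Lrrc15 had 116 UMIs (0.498 CPM, log2 ratio -7.70, -7.97 to -7.43). Perp had 79 UMIs (0.339 CPM, log2 ratio -7.41, -7.75 to -7.09), and its interval overlaps that of Lrrc15. Slit3 had 347 UMIs (1.49 CPM, log2 ratio -6.99, -7.14 to -6.83), more than the other 6 genes together. As the background to the choice, 21.9% of 10277 genes at 5 CPM or more were at least 2-fold lower in iMPC, and all 7 are among them by construction. The 7 are not the whole head of the list: among genes at 50 CPM or more in MEF, Aspn (-8.57), Fbln5 (-7.57), Thbs1 (-7.05) and Cxcl12 (-6.99) lie between Gm2115 and Slit3. Just outside is Isg15 at -6.67.

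**Figure D1:**
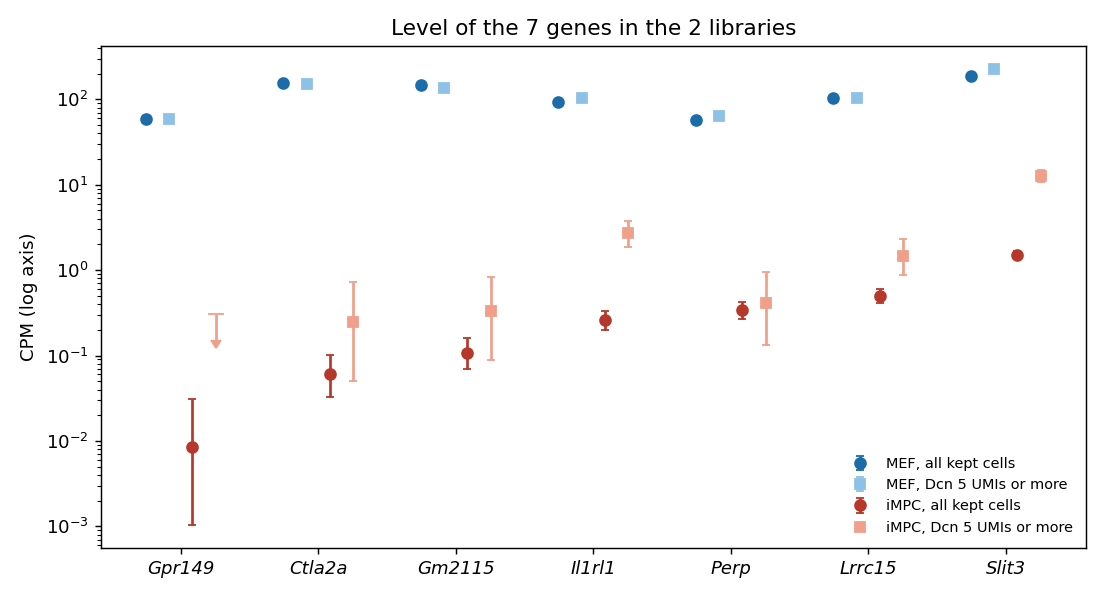
CPM of each of the 7 genes (log axis) in all kept MEF cells, MEF cells with 5 or more Dcn UMIs, all kept iMPC cells and iMPC cells with 5 or more Dcn UMIs; bars are exact 95% Poisson intervals and the arrow is the upper limit of a count of 0. MEF levels lie between 57.8 and 189 CPM, while iMPC levels run from 0.00859 CPM for Gpr149 to 1.49 CPM for Slit3, and Slit3 and Il1rl1 lie higher in the Dcn cells; the higher value of Lrrc15 rests on 18 UMIs.

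Ctla2b checks how reads of close copies were assigned. Ctla2b was at 0.720 CPM in MEF (85 UMIs in 1.37% of cells) and had 0 UMIs in iMPC, where the limit for a count of 0 is 3 UMIs. The longest coding transcripts of the 2 genes agree at 87.9% of 782 aligned bases, and the upstream windows printed above at 91.2% of 228. Reads could be split or dropped between such copies or overlapping models, so the Ctla2a level carries an uncertainty the interval does not show.

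The 7 genes differed in how they were spread over MEF cells. To compare cells, each was thinned to 5000 UMIs, which left out 284 shallower MEF cells and kept 5759. Thinned shares were 56.0% for Slit3, 43.1% for Gm2115, 42.6% for Ctla2a, 33.3% for Lrrc15, 30.7% for Il1rl1, 22.4% for Gpr149 and 16.7% for Perp. At its mean, Perp would be in 25.03% of the thinned cells if its UMIs fell at random, and Gpr149 in 24.0%. The variance of UMIs per cell divided by their mean, which is 1 for random counting, was 2.25 for Perp, 1.89 for Ctla2a, 1.51 for Lrrc15, 1.48 for Il1rl1, 1.47 for Gm2115, 1.27 for Slit3 and 1.17 for Gpr149. Its median over 1754 genes of like mean level was 1.07, with 5% of them below 1.01 and 5% above 1.48. Perp, Ctla2a and Lrrc15 were above that range, Lrrc15 narrowly, and the other 4 within it. The 576 cells richest in Perp (mean 0.288 UMIs) held 76.9% of its UMIs, and the 576 richest in Gpr149 (mean 0.275) held 55.0%. For Slit3 the share was 35.5%, but its mean was higher (0.938), and the share also depends on the mean. At one bulk level, Gpr149 was thin in many cells and Perp dense in few.

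Clusters of MEF cells were used to place the genes. The 7 genes were left out of those clustered, but come from the same cells, so cluster levels are a description. Of 10 clusters, cluster 1 (1302 cells) was led by the contractile genes Myh11, Actg2, Cnn1 and Acta2, cluster 2 by Timp3 and Cemip, cluster 3 by Pltp, Ccl11 and Wnt4, and cluster 4 by Mmp3 and Sfrp2. Cluster 5 was led by Hmga1, Acta1 and Lgals3 and was shallow (median 6917 UMIs). Cluster 6, led by Inhbb and Dkk2, was shallow too (median 8534 UMIs, median mitochondrial share 7.56%). Thinning kept 410 of the 513 cells of cluster 5 and 332 of the 489 of cluster 6, so their levels below come from the deeper cells. Clusters 7 and 8 were led by the mitotic genes Ube2c and Ccnb2, and clusters 9 (269 cells) and 10 (86 cells) by Mgp, an inhibitor of calcification.

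Slit3 was between 146 and 244 CPM in clusters 1, 2, 3, 4, 6, 7 and 8, and at 44.4, 43.8 and 27.9 CPM in clusters 5, 9 and 10. Ctla2a was highest in clusters 1 and 2 (214 and 208 CPM) and lowest in clusters 6, 9 and 10 (67.5, 25.7 and 4.65 CPM). Gpr149 took the opposite side in cluster 6, its highest at 102 CPM, and was at 6.04 CPM in cluster 9 and 0 UMIs in cluster 10. Il1rl1 was highest in clusters 6 and 4 (167 and 143 CPM) and kept 115 CPM in cluster 9. Gm2115 was highest in clusters 6 and 2 (218 and 200 CPM) and kept 104 CPM in cluster 9.

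Lrrc15 was highest in clusters 8, 1 and 7 (152, 145 and 138 CPM) and at 9.81 CPM in cluster 9. Perp ran the other way, with 112 and 104 CPM in clusters 3 and 4, and 30.5, 20.2 and 16.9 CPM in clusters 1, 7 and 8. Cluster 5 carried 17414 CPM of the smooth muscle and myofibroblast list used below, against 25108 CPM in cluster 1. In cluster 5 Lrrc15 was nonetheless at only 40.5 CPM, and Perp at 50.7 CPM. Cluster 10, the smallest, held from 0 to 37.2 CPM of each gene. Cluster 9 separated the set: Gpr149, Ctla2a, Lrrc15 and Slit3 were low in it, and Gm2115, Il1rl1 and Perp were not.

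**Figure D2:**
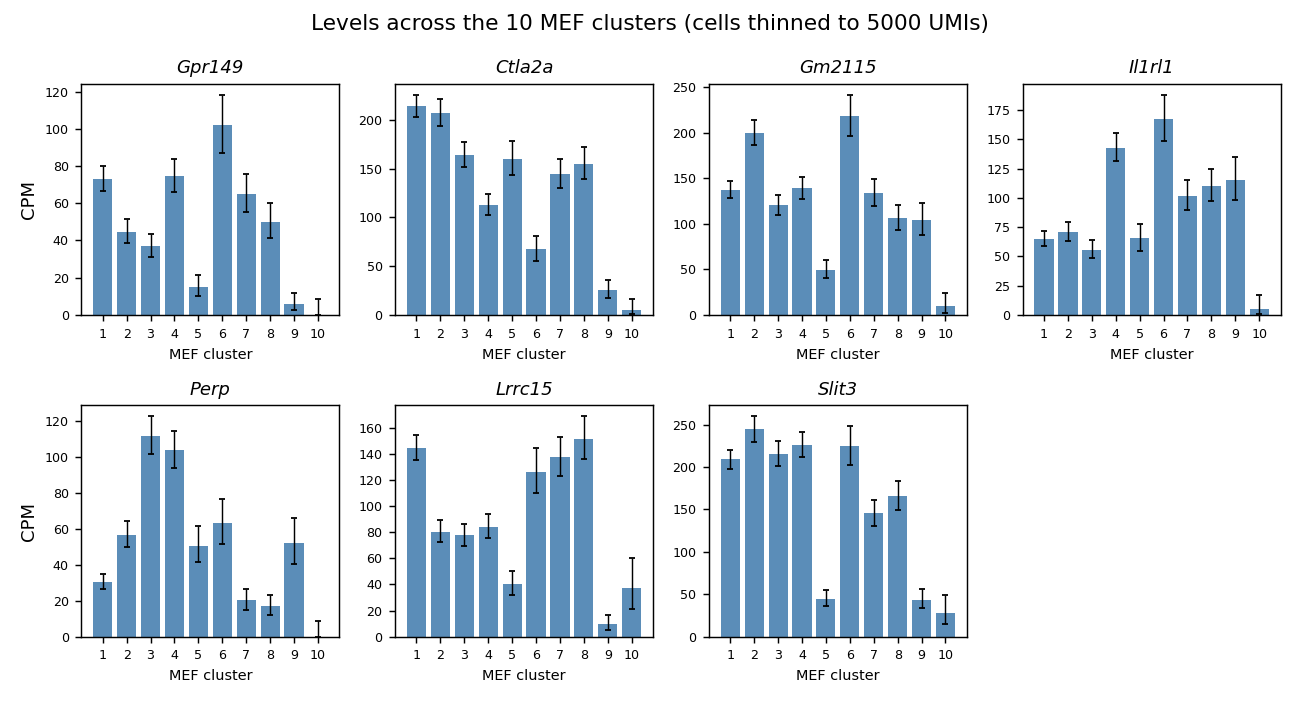
CPM of each gene (vertical axes, from 0) in the 10 MEF clusters (horizontal axes) after thinning to 5000 UMIs per cell, with exact 95% Poisson intervals. Perp is highest in clusters 3 and 4 and Lrrc15 in clusters 8, 1 and 7, while cluster 10 holds little of any gene.

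Ranking cells by gene lists that hold none of the 7 gave a second view. By the summed UMIs of 10 smooth muscle and myofibroblast genes, Perp was at 118 CPM in the lowest 25% of MEF cells and 26.7 CPM in the highest, a log2 ratio of -2.14 (-2.37 to -1.92). Cells tied at a limit were all taken in, so the low and high sets held 1479 and 1467 of the 5759 cells here and 1669 and 1764 for the next list. Lrrc15 went from 54.0 to 147 CPM, a log2 ratio of 1.44 (1.27 to 1.61). These are the 2 of 7 past 2-fold; 6.57% of 9598 other genes were as far below and 4.62% as far above. Ctla2a went from 122 to 199 CPM (0.70, 0.58 to 0.82), Gpr149 from 47.3 to 63.3 CPM (0.42, 0.22 to 0.62) and Il1rl1 from 90.7 to 59.0 CPM (-0.62, -0.80 to -0.44). Gm2115 (-0.08, -0.21 to 0.05) and Slit3 (-0.13, -0.24 to -0.02) were nearly flat.

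The next list held 8 small proteoglycan and matrix genes such as Bgn, Dcn, Lum and Ogn. Bgn weighed most in its sum, at 1574 CPM in MEF against 268 CPM for Dcn. By this list no gene of the 7 passed 2-fold, where 0.97% of 9483 others were as far below and 1.89% as far above. Ctla2a was higher with the list (0.50, 0.39 to 0.62), and Il1rl1 (-0.84), Perp (-0.77) and Gpr149 (-0.53) were lower. Gpr149 thus had opposite signs with the 2 lists. A UMI of 12 cell cycle genes was in 1700 of the thinned MEF cells. Perp was lower in these than in the rest (43.8 against 63.4 CPM, log2 ratio -0.53) and Slit3 too (156 against 201 CPM, -0.36). A single UMI was enough, and clusters 1 to 4 carried 39.0 to 55.1 CPM of the list, so their cells can enter this set. Clusters 7 and 8 carried 2628 and 269 CPM of the list, against 299 CPM over all thinned MEF cells, so only cluster 7 was high in it. In these clusters Perp was at 20.2 and 16.9 CPM and Lrrc15 at 138 and 152 CPM. Between cells with and without such a UMI, the genes of the 7 other than Perp and Slit3 differed by less than 0.2 on the log2 scale. Of 9526 other genes, 0.0735% were at least 2-fold lower and 2.83% at least 2-fold higher in the cells with a UMI. Between cells with and without a UMI of 12 posterior Hox genes, positional genes of limb and trunk fibroblasts, the largest difference among the 7 was 0.24, for Slit3, and of 9398 other genes 0.0319% were at least 2-fold lower and 0.0745% higher.

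**Figure D3:**
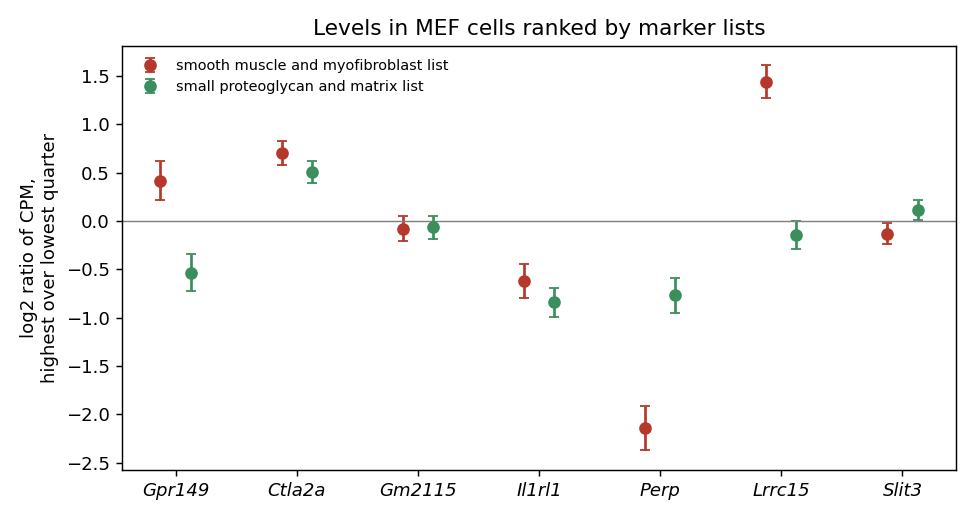
Log2 ratio of CPM in the highest over the lowest 25% of MEF cells (ties at the limits included) ranked by the contractile list (red) or the small proteoglycan list (green), with exact 95% intervals; the line marks no difference. Perp is at -2.14 and Lrrc15 at 1.44 with the contractile list, and no gene passes 1 in either direction with the proteoglycan list.

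The genes whose UMIs varied most like each member, over 5759 thinned cells and 9617 genes, gave the same division. All correlations were weak (Pearson's r of log values, at most 0.265), share the same cells and depth, and are descriptions. For Lrrc15 they were Acta2 (0.193), Tagln, Tpm1, Flna and Lpp, of the contractile cytoskeleton. For Perp they were Pltp (0.265), Ctsd, Cdkn2a, Cdkn1a and Mdm2, and the genes most opposed were Acta2 (-0.250) and Tagln. Cdkn1a and Mdm2 are p53 targets, as Perp is known to be. Mdm2 stood at 336 CPM in Perp-positive cells and 170 CPM in Perp-negative ones, and Cdkn1a at 924 and 542 CPM.

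For Slit3 they were Thbs1 (0.215), Col1a2, Fn1, Sparc and Tnc, all secreted matrix proteins, and for Ctla2a Sparc (0.179), Ptn, Fbln5, Tnc and Gsto1. For Il1rl1 they were Dkk2 (0.181), Hmga2, Gap43, Crabp1 and Arhgdib, for Gm2115 Thbs1 (0.171), S1pr3, mt-Nd1, Ahnak and Ncam1, and for Gpr149 Lpp (0.135), Palld, Hmga2, Ankrd1 and Flna. Mgp was the most opposed gene for Gpr149, Ctla2a and Slit3. Its level was 39.7 CPM in Gpr149-positive and 473 CPM in Gpr149-negative cells.

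Association between the 7 genes within MEF cells was weak. Of the 5759 thinned MEF cells, 92.9% held at least 1 of the 7, and the mean cell held 2.45. Cells with 4 or more were 21.4%, where independent genes with these shares would give 19.1%. Cells with none were 7.12%, where independence would give 4.30%. Without thinning, 97.0% held at least 1, and the 180 cells that held none had a median of 5880 UMIs. Of the 21 pairs, 12 had a log2 odds ratio whose 95% interval lay above 0, for 2 it lay below 0, and for 7 it spanned 0. The median log2 odds ratio was 0.27, and r ran from -0.0978 to 0.103.

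The closest pair was Lrrc15 and Slit3, together in 1195 cells with a log2 odds ratio of 0.56. The pair furthest apart was Perp and Lrrc15, together in 219 cells with a log2 odds ratio of -0.89 (-1.13 to -0.65), followed by Ctla2a and Perp at -0.35 (-0.56 to -0.14). Slit3 was above 0 with all 6 others. Within clusters the median log2 odds ratio was 0.07, and without clusters 5, 9 and 10, which are low for several of the genes, 0.05. It was 0.130 for at least 2 UMIs and 0.128 at 2000 UMIs per cell. The association of Perp with Lrrc15 was -0.78 within clusters and -0.99 without those 3. That of Ctla2a with Perp was -0.26 and -0.39. Without thinning, where deep cells hold more of everything, the median was 1.21, Perp and Lrrc15 stood at -0.34 and Ctla2a and Perp at 0.02.

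**Figure D4:**
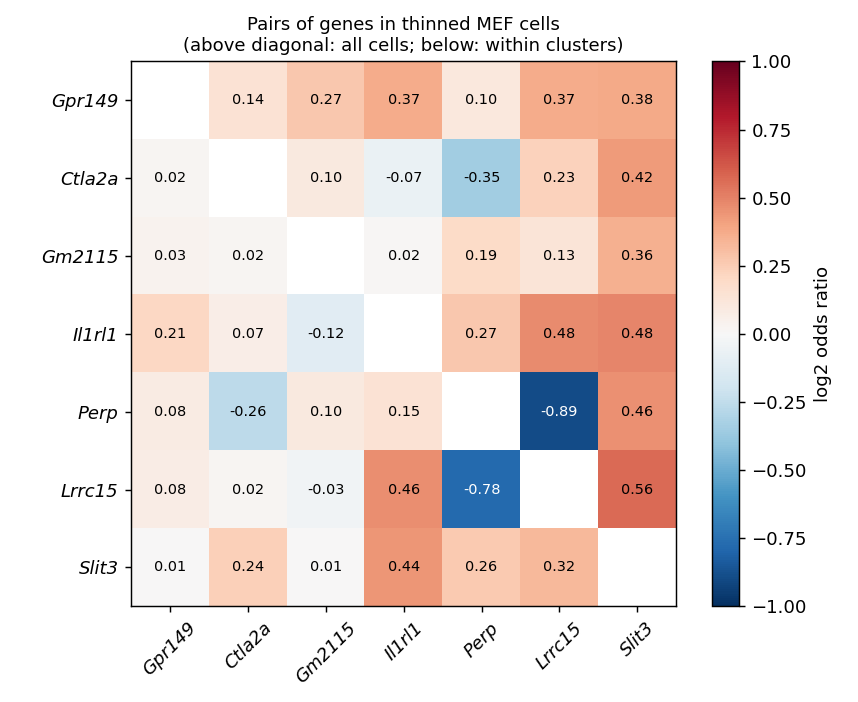
Log2 odds ratio that a thinned MEF cell holds both genes of a pair (rows and columns are the 7 genes; red above 0, blue below), over all cells above the diagonal and within clusters below it. Lrrc15 with Perp is the lowest at -0.89 and -0.78, and most of the pale red above the diagonal is paler below it.

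In iMPC the cells that still express Dcn, the fibroblast proteoglycan decorin, were examined for what was left of the 7 genes. Cells with 5 or more Dcn UMIs numbered 553 (5.92% of iMPC cells, 5.23% of UMIs). They carried Col1a1 at 508 CPM, Col3a1 at 2174 CPM and Pdgfra at 63.5 CPM, against 2289, 711 and 88.1 CPM in MEF, and also Pax7 at 26.2 CPM and the muscle gene Mylpf at 1211 CPM. Together they held 217 of the 644 UMIs of the 7 genes left in iMPC. A UMI of at least 1 of the 7 was in 17.5% of them (14.5 to 20.97). In the 8796 other cells it was in 2.54% (2.22 to 2.89), and in those with 5 or more Myog UMIs, differentiating muscle cells, in 1.20%. Median depths were 18064, 21058 and 29380 UMIs, so the Dcn cells were the shallowest. Thinned to 5000 UMIs, 5.42% of the Dcn cells held one.

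Of the 7 genes, 3 were higher in the Dcn cells by their counting intervals. Slit3 was at 12.7 CPM in the Dcn cells (154 UMIs in 13.7% of them) and 0.875 CPM in the others, a log2 ratio of 3.85 (3.54 to 4.17). Il1rl1 was at 2.71 CPM (33 UMIs in 16 cells, 8 of them in 1 cell) and 0.127 CPM, a log2 ratio of 4.42 (3.65 to 5.20). The intervals treat UMIs of 1 cell as independent. Lrrc15 was at 1.48 CPM (18 UMIs) and 0.444 CPM, a log2 ratio of 1.73 (0.92 to 2.47). As background, 18.5% of 16406 genes with 10 or more UMIs were at least 2-fold higher in the Dcn cells. That share takes the ratio alone, without an interval, so it is not matched to the 3. By the ratio alone Ctla2a (2.30) and Gm2115 (1.79) would count as well. The Lrrc15 difference rests on few UMIs: in cells thinned to 5000 UMIs it was -0.53.

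For the other 4 the interval reached 0 or there was nothing to compare. Ctla2a had 3 UMIs in the Dcn cells (log2 ratio 2.30, -0.18 to 4.23), Gm2115 had 4 (1.79, -0.22 to 3.35) and Perp had 5 (0.29, -1.37 to 1.58). Gpr149 had 0 UMIs in 553 cells. At these counts no order among the 4 could be given.

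Set against MEF cells chosen by the same Dcn limit (2179 cells), all 7 genes were far lower in the iMPC Dcn cells. This follows from the choice, since few UMIs of the 7 were left in the whole iMPC library, so the falls are a description. Of 10302 genes, 13.9% were at least 2-fold lower in that comparison. Slit3 went from 224 to 12.7 CPM, 17.7-fold lower (log2 ratio -4.15, -4.38 to -3.92). Il1rl1 was 38.0-fold lower, Lrrc15 69.5-fold, Perp 155-fold, Gm2115 413-fold and Ctla2a 621-fold. Gpr149, at 59.0 CPM in MEF Dcn cells, was at least 239-fold lower by the floor of 3 UMIs over the set. Within MEF the same limit made little difference. Slit3 was 0.44 higher on the log2 scale in Dcn cells, Il1rl1 was 0.28 and Perp 0.23 higher. Gm2115 was at -0.17 and Lrrc15 at -0.01. By the proteoglycan list, in which Bgn weighed most, Il1rl1 and Perp went the other way, at -0.84 and -0.77.

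The limit of 5 Dcn UMIs is not an edge in these data. The 54 cells with 4 Dcn UMIs held 16.9 CPM of the 7 genes summed and the 29 with 5 held 11.3 CPM. Cells with 0 Dcn UMIs held 1.45 CPM, those with 1 held 5.92, with 2 to 4 held 13.9, with 5 to 9 held 10.6, with 10 to 49 held 18.7 and with 50 or more held 27.9 CPM. Of the 65 cells in the last class, 38.5% held a member.

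Most of the remaining UMIs lay outside the Dcn cells. The 2090 iMPC cells with neither 5 Dcn UMIs, 5 Myog UMIs nor any Pax7 held 277 UMIs of the 7 genes (7.26 CPM), among them 146 of Slit3, 57 of Lrrc15 and 42 of Perp. Perp was concentrated: 19 of its 79 UMIs came from 1 cell with 0 Dcn UMIs, and 67.1% from 5 cells. Slit3 was spread over 196 cells, with 45 UMIs in its top 5. The 320 iMPC cells with any member held 1 of them in 277 cases and 4 at most.

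Some other fibroblast genes were high in the cells that held a member, and some were not. The 43 iMPC cells with 2 or more of the 7 carried Col1a1 at 2310 CPM, the MEF level, and Pax7 at 4.61 CPM. They also carried the muscle genes Myog at 235 CPM and Mylpf at 1148 CPM, against 0.0508 and 2.41 CPM in MEF. Their median depth was 28060 UMIs, against 20846 in all kept iMPC cells, and a deeper barcode has more room for 2 members. But Aspn, Fbln5 and Thbs1, which fell beside the 7, stood at 1.98, 16.5 and 146 CPM in them, against 114, 378 and 1883 CPM in MEF. In Dcn cells that held a member (median 21627 UMIs) Col1a1 was at 1138 CPM, and in those that held none (17504 UMIs) at 345 CPM. The cells with 2 or more members were thus near MEF in Col1a1 and far below it in Aspn, Fbln5 and Thbs1.

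A different picture came from iMPC barcodes too small to be kept as cells, which were looked at after the members' UMIs in them had been seen. The 11319 barcodes of 601 to 8035 UMIs held 886 UMIs of the 7 genes, 53.2 CPM against 2.77 CPM in the kept cells and 802 CPM in MEF. The peak was 127 CPM (116 to 139) at 1001 to 2000 UMIs, where 10.4% of 2781 barcodes held a member. It fell to 3.47 CPM at 5001 to 8035 UMIs and was 7.62 CPM at 200 to 600. All 7 were there, and in other proportions than in the cells: at 1001 to 2000 UMIs Ctla2a led with 157 UMIs, followed by Slit3 (107), Gm2115 (73), Perp (45), Lrrc15 (43), Il1rl1 (41) and Gpr149 (17). Gpr149, with 2 UMIs in 9349 cells, had 17 in these 2781 small barcodes.

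The small barcodes with 2 or more of the 7, 168 in all, carried those fibroblast genes as well: Aspn at 128 CPM (86.4 to 183), Fbln5 at 359, Thbs1 at 1627, Col1a1 at 1896 and Acta2 at 6602 CPM, where MEF cells had 114, 378, 1883, 2289 and 6108. Mylpf was at 414 CPM in them, 4561 CPM in small barcodes with no member and 2.41 CPM in MEF. Their median mitochondrial share was 3.31%, against 14.9% in small barcodes with none of the 7. None of the 168 is a listed MEF barcode. Whether they are cells was not tested.

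**Figure D5:**
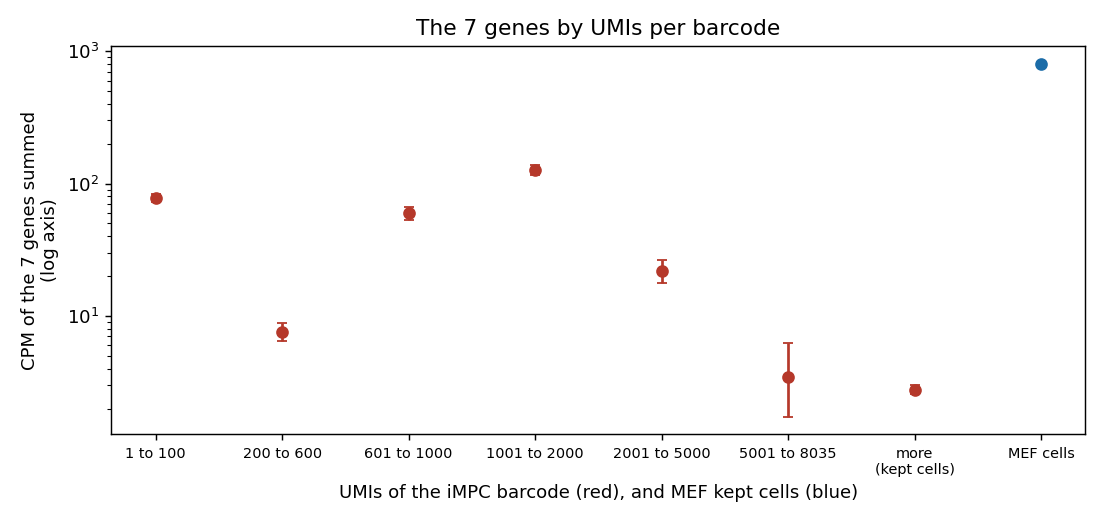
CPM of the 7 genes summed (log axis) by the UMIs of the iMPC barcode (red) and in MEF kept cells (blue), with exact 95% Poisson intervals. The level is 127 CPM at 1001 to 2000 UMIs and 2.77 CPM in the kept cells.

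The pathways around the 7 genes are given from lists that hold other genes of each family. Of 66 list genes at 5 CPM or more, the 7 left out, 34 (51.5%) were at least 2-fold lower in iMPC and 9 (13.6%) higher, with a median log2 ratio of -1.08. Over all 10277 genes the shares were 21.9% and 15.5%, with a median of -0.17. The lists were chosen with earlier results of these data known, so the difference in shares is a description.

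In the Slit and Robo list most genes were within 2-fold. Of 10 other genes, 1 was lower, the ligand Slit2 (55.3 to 25.1 CPM, -1.14), and 3 were higher: the receptor Robo1 (7.17 to 33.2 CPM, 2.21), the heparan sulfate carrier Gpc1 (1.97) and the Robo effector Srgap3 (1.60). The IL-33 list went both ways. The ligand Il33 was higher in iMPC (1.71 to 40.6 CPM, 4.57), while the co-receptor Il1rap (19.1 to 2.999 CPM, -2.67), the adaptor kinase Irak2 (-2.44) and the related receptor Il1rl2 (-3.53) were lower, as were Myd88 (-1.02) and Irak4 (-1.25). MEF thus had Il1rl1 at 92.2 CPM and Il33 at 1.71 CPM, and iMPC had them at 0.262 and 40.6 CPM.

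Of 11 cathepsins and inhibitors beside Ctla2a, 6 were lower, among them Ctsk (136 to 7.21 CPM, -4.24), Ctsl (-1.74) and Ctsb (-1.53), which are cysteine proteases, and 1 higher, the inhibitor Cst6 (2.92). Of 15 p53 targets and PMP22 relatives beside Perp, 9 were lower and 0 higher. Emp1, a PMP22 relative, was at -3.01, and the p53 targets Fas, Ccng1 and Mdm2 were at -2.73, -2.72 and -1.63. Cdkn1a, the p53 target that also arrests differentiating myoblasts, was at 0.30. Of the 12 desmosome genes, 8 were under 5 CPM in both libraries, Dsp, Dsg2 and Dsc2 among them; Jup (-1.71) and Pkp2 (-1.76) were lower and Pkp4 (1.15) higher.

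Of 10 leucine-rich repeat surface genes beside Lrrc15, 6 were lower, led by Flrt2 (159 to 13.8 CPM, -3.53), Lrrn3 (-2.92) and Lrrc32 (-2.78), and 2 higher, Lrrn1 (4.39) and Islr (3.64). Of 6 orphan receptors beside Gpr149, 5 were lower: Gpr176 (27.5 to 0.529 CPM, -5.70), Gpr153 (-3.90), Gpr85 (-3.15), Gpr161 (-2.95) and Gpr173 (-1.18). Gpr27 was higher (0.381 to 11.3 CPM, 4.90).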

How the data were processed

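The authors' deposited files give unnormalised UMI counts for 1 MEF and 1 iMPC library, by gene and barcode, in the matrix layout of Cell Ranger; the submitters' processing notes name Cell Ranger 4.0, Seurat 3.2.3 and GRCm38.p6, and no normalisation of the counts is recorded. The iMPC matrix lists 6794880 barcodes, so its cells were called here; the MEF matrix lists 6113, and how they were selected is not given in the sources used here. The MEF sample's protocol text equals that of iMPC, and its own treatment label was used.

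Values are CPM of summed counts with exact Poisson, conditional or Clopper-Pearson 95% intervals, for counting error only. Cells were thinned to 5000 UMIs for shares and pairs. Clusters used 2000 variable genes without the 7 members, 30 principal components, 15 neighbours and Leiden resolution 0.6 (scanpy 1.11.5, Python 3.11.15). Scrublet marked 0 MEF and 337 iMPC cells as doublets (3.60%). It had thus not worked in MEF; doublets were kept, and an alternative removed the highest scores (249 MEF, 455 iMPC cells). Genes of 5 CPM or more in either library entered the lists, and the text names the next largest falls at 50 CPM or more, the 5 genes most correlated with each member and up to 4 largest ratios per list; other genes named were chosen after their values were seen. The members and lists were chosen with earlier results of these data known. Ratios and odds ratios were tested on simulated data.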

Additional observations from a re-analysis of the deposited data

Results flagged for a closer look

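In data outside the kept cells, the 7 genes stood at 53.2 CPM summed in iMPC barcodes of 601 to 8035 UMIs, above the 2.77 CPM of the kept iMPC cells and the 7.62 CPM of barcodes of 200 to 600 UMIs. Of those 886 UMIs, 2 lay on barcodes listed in the MEF matrix.

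In iMPC barcodes of 1 to 100 UMIs, the 5402 that are also listed MEF barcodes held 677.7 CPM of the 7 genes, and the other barcodes of that size 57.0 CPM. The former are 0.205% of these barcodes, with 3.35% of their UMIs and 29.2% of the 682 member UMIs. Their Col1a1 level was 2238 CPM, near that of MEF cells, and their median was 55 UMIs against 2 over all barcodes of this size. Of the 6113 MEF barcodes, 6111 held a UMI in the iMPC matrix, against 39.8% of all barcodes it lists. The cause of either pattern was not tested.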

How the results depend on the processing

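Under all 11 alternatives the median log2 ratio of the 7 genes stayed within its counting interval. Single ratios moved beyond theirs in 3 of 76 cases and none changed direction: Slit3 under scaling by the median of gene ratios or without mitochondrial and ribosomal protein genes, and Ctla2a, at -13.2, after free RNA, as profiled in barcodes of 200 to 600 UMIs, was subtracted. That subtraction left Gpr149 without a value, since its expected free UMIs exceeded those counted. Scaling by the median of gene ratios shifts all genes by 0.18 on the log2 scale.

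The share of MEF cells with at least 1 of the 7 (92.9%) was 73.9% at 2000 UMIs per cell, 97.0% with no thinning, 62.0% for at least 2 UMIs and 96.3% without clusters 5, 9 and 10. The median log2 odds ratio of pairs (0.27) was 1.21 with no thinning, 0.0679 within clusters, 0.0483 without those 3 clusters, 0.130 for at least 2 UMIs and 0.128 at 2000 UMIs. Of the 21 pairs, 3 were below 0 as reported, 6 at 2000 UMIs, 8 for at least 2 UMIs, 4 within clusters, 6 without the 3 clusters and 1 with no thinning. Among values whose interval as reported excluded 0, directions reversed at 2000 UMIs for Gpr149 with Il1rl1 (-0.0464) and for Gpr149 (-0.0235) and Ctla2a (-0.0952) by the posterior Hox list, for Ctla2a with Perp with no thinning (0.0188), for Slit3 by the proteoglycan list without the 3 clusters (-0.0224), and for Lrrc15 in Dcn cells thinned to 5000 UMIs (-0.53). The share of Dcn cells with a member (17.5%) was 5.42% thinned to 5000 UMIs, which cuts the UMIs available, and 5.56% in barcodes of 601 to 8035 UMIs. Beyond their intervals moved 54 values of pairs (91 stayed), 26 shares of MEF cells (16 stayed), 20 ratios by gene list (117 stayed) and 1 in Dcn cells (44 stayed). The ratios of the highest to the lowest cluster have no interval. Of these, 8 moved by more than a fixed log2 limit and 34 stayed. The leaving out of clusters, the small barcodes and the removal of shared barcodes were chosen after seeing the data. The other causes were not tested.

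No paired analysis was possible because each group holds 1 library. Gpr149, Ctla2a and Gm2115 had 2, 14 and 25 UMIs in the kept iMPC cells, so their values there rest on few counts.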
